A study of Mus musculus with 6 samples.

Results

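The retinoic acid genes described here are Stra6, Rdh10, Dhrs3, Aldh1a1, Aldh1a2, Aldh1a3, Cyp26b1, Rara and Rarb, which are 9 of the 32285 genes in the expression matrix. They were picked by symbol from the gene table of the matrix, and all 9 had at least 1 molecule counted in the cells. The choice was made with values of these same cells known: the study named Rdh10 among the genes high in a subcluster of pericytes after stroke, and the other genes are steps of the same pathway. The level of Rdh10 in those pericytes is therefore given as a description.

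The cells came from the cortex of male RGS5::GFP het mice, 8 to 12 weeks old, taken 1, 12 or 24 h after a middle cerebral artery had been closed for good. In these mice GFP stands in place of 1 allele of Rgs5, a gene of mural cells, so every group has a single working copy. Live cells depleted of neurons were sequenced with the 10x 3′ assay from the injured cortex (IPSI) and from the matching cortex of the other hemisphere (Contra), with 1 library for each of the 6 groups. The Contra cortex also came from mice with a stroke. The labels give the v3 kit for the 1 h and 24 h libraries and the v3.1 kit for the 12 h libraries, while the methods of the study name the v3.1 kit alone. The barcodes carry library numbers from 1 to 6, and the sources used here do not tie a number to a group. The values of the libraries are therefore set side by side by number, without a hemisphere or a time, and no test between conditions was made.

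Cells obtain retinoic acid from vitamin A. Retinol is taken up from its carrier in blood, oxidised to retinal by retinol dehydrogenases and oxidised again to retinoic acid by retinal dehydrogenases. A reductase can turn retinal back into retinol, and P450 enzymes of the Cyp26 family clear retinoic acid. Retinoic acid binds nuclear receptors that sit on DNA together with retinoid X receptors, and it is known in the brain for its part in patterning of the embryo, in the meninges and in the maintenance of the barrier of the vessels.

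The receptor pairs bind direct repeats of a 6-base motif. The windows from 250 bases before to 50 bases after the start of each gene, taken from RefSeq on GRCm38.p6, were searched on both strands for 2 copies of the motif in the same direction with 1, 2 or 5 bases between. The motif was AGGTCA in its usual form, and the forms GGGTCA and also AGTTCA and finally GGTTCA were allowed, in any mix. Of the 9 genes, 7 had windows in the table, 16 in all. Among the 32851 windows of all genes, 0.222% held a repeat with 1 base between, 0.268% with 2, 0.0974% with 5 and 0.588% any of them. Rarb, which encodes retinoic acid receptor beta, held a repeat with 5 bases between, from 53 to 37 bases before the single start that the table gives for it. That start lies inside the gene as GENCODE bounds it, since other transcripts of Rarb begin further upstream. Cyp26a1, which encodes another enzyme that clears retinoic acid and is not one of the 9 genes, held a repeat of the same spacing from 32 to 16 bases before its start, on the opposite strand. Rdh10 and Aldh1a3 had no entry. These 2 stretches are shown because they carry the recognised sequence of the receptors whose genes are described below. Each is 100 bases long and is written along the strand of its gene, with the repeat in capitals. Rarb lies on the minus strand, and its stretch is chr14:16575477-16575576. The stretch of Cyp26a1 is chr19:37697708-37697807 on the plus strand.
Rarb: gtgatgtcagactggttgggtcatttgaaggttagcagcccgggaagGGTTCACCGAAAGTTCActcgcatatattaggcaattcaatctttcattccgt
Cyp26a1: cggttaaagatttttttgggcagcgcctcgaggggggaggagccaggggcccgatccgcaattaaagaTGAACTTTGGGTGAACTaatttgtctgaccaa
A match of letters is a description of the window and does not show that a receptor was bound there. Among all cells Rarb had 85 molecules and Cyp26a1 had 0.

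A total of 17357 cells passed the filters, between 1221 and 5873 in a library, with a median of 5053 to 5660.5 unique molecules (UMIs) per cell. They fell into 14 named classes, and 861 cells stayed unnamed. Each class is named as "-like" from markers, and every marker of a class was detected in its cells. The classes used most below are 7841 microglia-like, 2674 endothelial-like, 2546 oligodendrocyte-like, 1165 astrocyte-like, 862 pericyte-like, 194 smooth muscle-like and 31 fibroblast-like cells. The fibroblast-like cells were few in every library, from 2 to 11. Only 26 barcode sequences were shared between libraries, 0.15% of those in cells. Levels are counts per 1000000 UMIs of a class (CPM), with an exact 95% Poisson interval in brackets. The intervals cover counting error only and not differences between animals, since no group has a replicate. Molecules also occur outside cells: in barcodes with 1 to 50 UMIs, Dhrs3 stood at 44.1 CPM, Aldh1a1 at 9.85, Rdh10 at 8.54, Rara at 3.93, Stra6 at 3.74 and the other 4 genes below 1. Some classes lay far below these values, with Dhrs3 at 0.543 CPM in oligodendrocyte-like cells and Aldh1a1 at 0.135 CPM in microglia-like cells. Some but not all levels near or below the values found outside cells are pointed out, and the part of free molecules in any level was not tested.

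The steps of the pathway were found in different classes. Stra6 was highest in endothelial-like cells, Rdh10 in fibroblast-like and pericyte-like cells, Dhrs3 in perivascular macrophage-like and microglia-like cells, and Rara in neutrophil-like cells. Aldh1a1, Aldh1a2, Aldh1a3 and Rarb were highest in fibroblast-like cells. Fibroblast-like cells were the class with the most of the 9 genes at 10 CPM or more, with 8. Astrocyte-like cells had 4, and pericyte-like cells had 2. The fibroblast-like cells held only 197691 UMIs together, so that very few molecules reach 10 CPM there. Stra6 did so with 2 UMIs in 1 cell, and Aldh1a3 and Rara with 4 UMIs each. No share over all genes was taken at this cut-off and the classes differed in total UMIs, so these counts are no result about the 9 genes. Of the 8 genes that reached 20 CPM in a class, 5 were 2 times or more above the next class in their highest class, against 32.0% of the 12119 genes ranked. Fibroblast-like cells were the highest class for 5 of the 8, against 8.90% of the genes ranked. Of these, Aldh1a2, Aldh1a3 and Rarb reached 20 CPM in fibroblast-like cells alone, so the cut-off itself fixed their highest class. The count is therefore no result about the 9 genes. The 9 genes were chosen with these data known, and the counts are a description. Within single libraries, among classes of at least 20 cells and thus without fibroblast-like cells, Stra6 was highest in endothelial-like cells in all 6. Rdh10 was highest in pericyte-like cells in libraries 2 to 6 and in microglia-like cells, at 21.7 CPM, in library 1. In library 1 its pericyte level, from 4 UMIs, was 0.729 times [0.187 to 2.07] the microglia level, an interval that included equal levels. In libraries 3 and 5 its pericyte level was 1.01 times [0.621 to 1.60] and 1.05 times [0.327 to 3.91] the astrocyte level, and these did not differ beyond counting error. Aldh1a1 was highest in astrocyte-like cells in libraries 1 to 4 and in pericyte-like cells in libraries 5 and 6, and the intervals of the pericyte to astrocyte ratio included equal levels in libraries 2, 3 and 4.

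**Figure D1:**
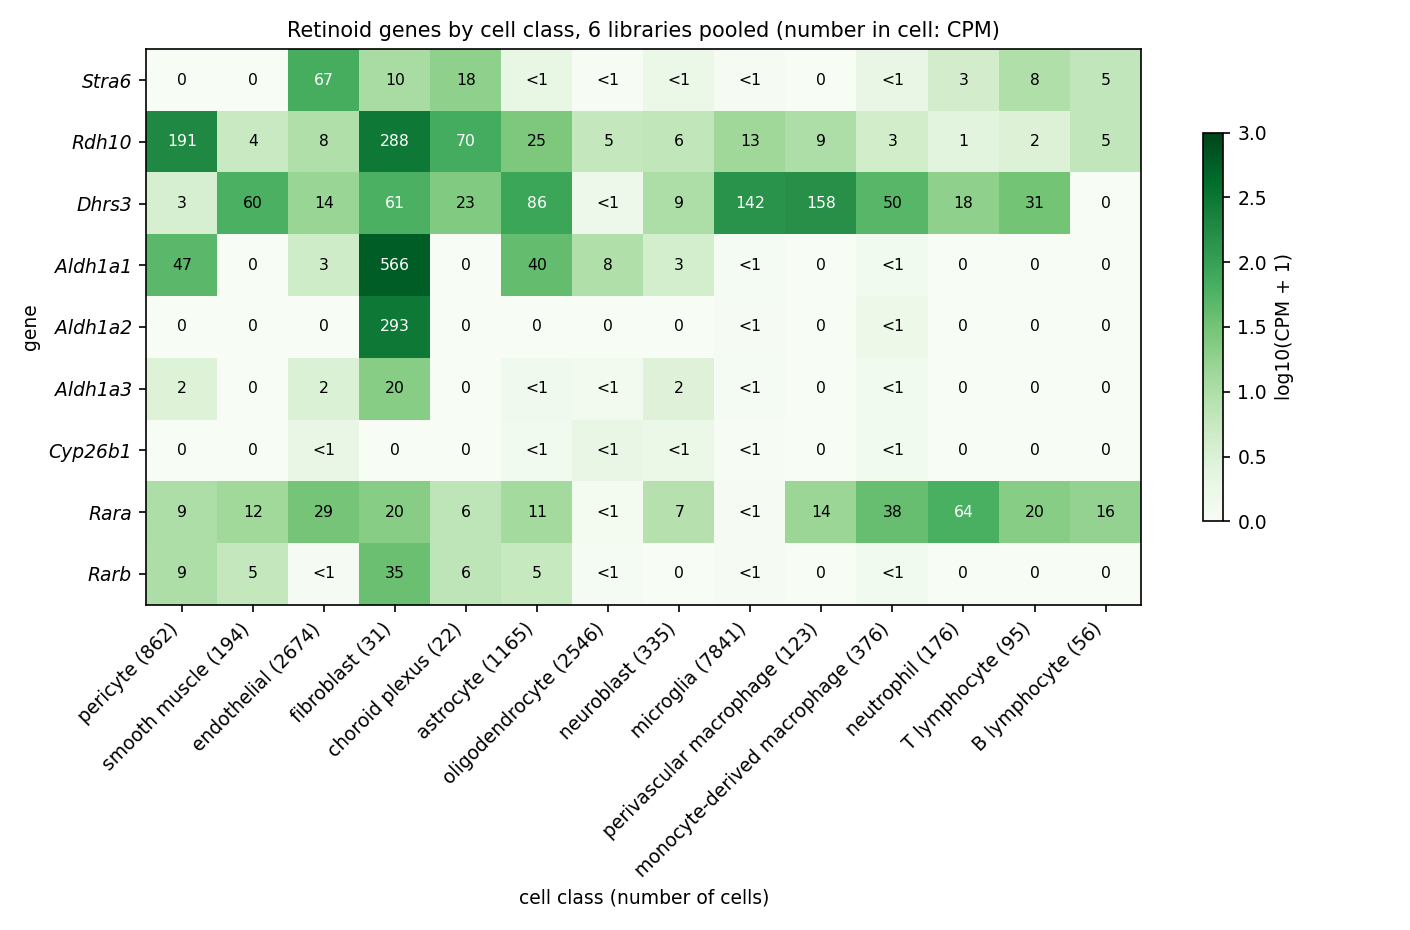
The level of each retinoid gene (rows) in each of the 14 named classes (columns, with the number of cells), with the 6 libraries pooled. Colour gives log10(CPM + 1) and the figure in each field is CPM. The fibroblast column holds 10 CPM or more for 8 of the 9 genes, but for Stra6, Aldh1a3 and Rara this rests on 2 to 4 UMIs. Stra6 stands out in endothelial-like cells at 67.2 CPM and Dhrs3 in microglia-like cells at 142.

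Stra6 (ENSMUSG00000032327, chr9:58063788-58153996, plus strand, GRCm38) encodes the membrane receptor that takes retinol from its carrier in plasma. Endothelial-like cells held 792 of its 863 UMIs, 91.8%. Its level there was 67.2 CPM [62.6 to 72.1], and 17.2% of the endothelial-like cells had a UMI against 0.0383% of the microglia-like cells, which should lack the gene. The median depth was 4000 UMIs in the former and 5236 in the latter. Pericyte-like and smooth muscle-like cells had no Stra6 UMI, which allows up to 1.18 CPM and 2.66 CPM. The endothelial level was 3.83 times that of choroid plexus-like cells [1.31 to 18.6], where only 3 UMIs were counted, and without library 3 it was 1.70 times [0.579 to 8.27], which no longer sets the classes apart.

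The endothelial level of Stra6 differed between the libraries. It was 70.3 CPM in library 1, 58.4 in library 2, 73.4 in library 3, 140 in library 4, 36.7 in library 5 and 46.5 in library 6. Library 4 stood above all others with no overlap of the intervals, and library 5 was the lowest, with an interval that overlapped with those of libraries 2 and 6 alone. There were 2 endothelial clusters. Cluster 2, with 2139 cells led by Ly6c1 and hemoglobin genes, had 58.9 CPM, while cluster 9, with 535 cells led by Ctla2a, Tmem252 and Ly6a, had 94.7 CPM, a ratio of 1.61 [1.38 to 1.87]. Cluster 9 came mainly from library 4 (172 cells) and library 6 (326 cells), and its level was 228 CPM [195 to 265] in the former and 45.5 CPM [36.1 to 56.7] in the latter. Within library 4, cluster 2 had 80.9 CPM [65.1 to 99.5]. This was also the highest cluster 2 value of the 6 libraries. Its interval overlapped with those of libraries 1, 2 and 3 but lay above those of library 5, 30.8 to 45.8 CPM, and library 6, 36.6 to 61.5 CPM. The separation of library 4 from libraries 1, 2 and 3 was thus carried by its cluster 9 cells. Cluster 9 cells of library 6 did not share the level of those of library 4. The overlap of Stra6 with Ccdc33 on the opposite strand and Gm16131 on the same strand concerned genes with 15 and 1 UMIs in all cells.

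Rdh10 (ENSMUSG00000025921, chr1:16105774-16133734, plus strand, no overlapping gene) encodes the retinol dehydrogenase that starts the oxidation of retinol. Its level was 288 CPM [218 to 374] in fibroblast-like cells and 191 CPM [176 to 206] in pericyte-like cells. Choroid plexus-like cells followed at 70.3 CPM [36.3 to 123], astrocyte-like cells at 25.1 [21.6 to 29.1] and microglia-like cells at 12.8 [11.8 to 13.9]. Endothelial-like cells at 8.40, smooth muscle-like cells at 4.33 and oligodendrocyte-like cells at 4.97 lay at or below the 8.54 CPM found outside cells. In 129 of the 862 pericyte-like cells a UMI was counted, 14.97%, against 3.18% of the endothelial-like and 4.44% of the oligodendrocyte-like cells, at median depths of 3311, 4000 and 9034 UMIs. The pericyte level was 22.7 times the endothelial level [18.3 to 28.4] and 44.0 times the smooth muscle level [20.1 to 120], and the fibroblast level was 1.51 times the pericyte level [1.13 to 1.99]. The last ratio rested on few cells: it was 1.33 [0.954 to 1.80] without library 2, 1.12 [0.831 to 1.47] without library 3 and 1.25 [0.90 to 1.69] without the 1 fibroblast-like cell with the most UMIs, all with equal levels inside the interval, and 2.87 [1.91 to 4.17] without library 6.

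The pericyte level of Rdh10 was uneven over the libraries. It was 15.8 CPM in library 1, 60.6 in library 2, 23.8 in library 3, 343 in library 4, 27.9 in library 5 and 647 in library 6. Libraries 4 and 6 stood above the other 4, and their intervals of 297 to 394 and 580 to 719 CPM did not overlap with any of them. Endothelial-like cells were between 3.43 and 10.6 CPM in the same 6 libraries, and astrocyte-like cells between 14.1 and 35.2 CPM. The ratio of pericyte-like to endothelial-like cells was 53.1 in library 4 and 61.3 in library 6, and lay between 2.60 and 13.2 in the other 4. Without library 6 the pooled ratio was 12.7, and without library 3 it was 35.7.

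The excess of libraries 4 and 6 sat in 1 group of cells. When pericyte-like and smooth muscle-like cells were clustered on their own, with all 51 listed retinoid genes left out, 1 subcluster stood out by its mean level of 5 genes that the study listed for its stroke pericytes (Mt1, Cxcl2, Ccl11, Ccl7 and Cxcl1). Its cells, in subcluster 5, are called the response cells here. It held 55 cells, 21 of library 4 and 34 of library 6, and none of the other 4 libraries. The response cells had 505 Rdh10 UMIs, a level of 1664 CPM [1522 to 1815], and the other 807 pericyte-like cells had 90 UMIs, 31.9 CPM [25.7 to 39.3]. These 55 cells held 84.9% of the Rdh10 molecules of all pericyte-like cells.

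Rdh10 was widespread among the response cells. A UMI was found in 53 of 55, 96.4%, against 76 of 807 other pericyte-like cells, 9.42%. The median depth was 5011 UMIs in the former and 3232 in the latter, and with each cell thinned to 1000 UMIs the shares were 63.6% and 2.97%. At least 3 UMIs were counted in 43 of the 55 cells against 4 of the 807, and at least 10 in 19 against 0. The level per cell ran from 0 to 5038 CPM in the response cells, with a median of 1406 CPM. Both libraries showed it: in library 4 the response cells stood at 1625 CPM and the other pericyte-like cells at 61.9, a ratio of 26.3 [17.6 to 40.4], and in library 6 the values were 1684 and 15.2, a ratio of 111 [47.1 to 344]. The 2 response groups overlapped each other, and both lay far above the other pericyte-like cells of any library, which spanned 15.2 to 61.9 CPM. Over the 2 libraries and the rest together the ratio was 52.1 [41.6 to 66.0].

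**Figure D2:**
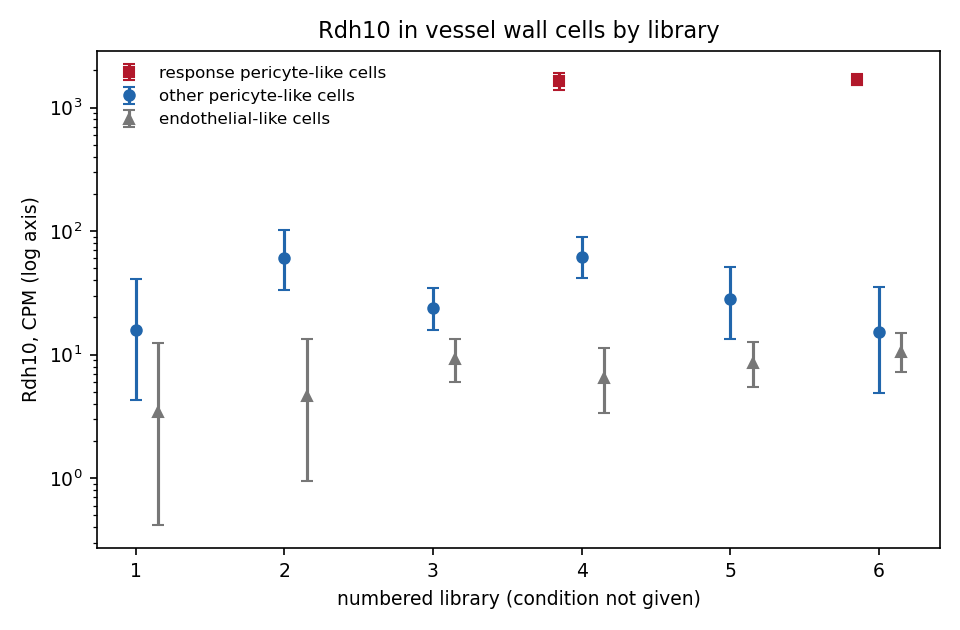
Rdh10 in CPM (log axis) by numbered library in response pericyte-like cells (squares), other pericyte-like cells (circles) and endothelial-like cells (triangles), where bars are exact 95% Poisson intervals. Response cells were found in libraries 4 and 6 alone, at 1625 and 1684 CPM, and the other pericyte-like cells spanned 15.2 to 61.9 CPM.

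Without the response cells, pericyte-like cells still had more Rdh10 than endothelial-like cells with the libraries pooled, at 3.80 times [2.82 to 5.11]. In library 1 the ratio was 4.62 [0.662 to 51.0], which included equal levels. Its intervals lay above equal levels in libraries 2, 3 and 5. In library 6 the other pericyte-like cells had 5 UMIs, 15.2 CPM [4.93 to 35.4], an interval that reached below the highest endothelial level of the libraries. Pooled, the other pericyte-like cells stood at 31.9 CPM [25.7 to 39.3] against 4.33 CPM [1.59 to 9.42] in smooth muscle-like cells. Of the libraries without response cells, 3 and 5 had at least 20 smooth muscle-like cells. The pericyte to smooth muscle ratio was 3.76 [0.947 to 32.6] in library 3, which included equal levels, and 12.2 [1.74 to 531] in library 5. Between the libraries the other pericyte-like cells had 15.8, 60.6, 23.8, 61.9, 27.9 and 15.2 CPM from library 1 to library 6. The interval of library 4, 41.4 to 88.9 CPM, lay above those of libraries 1, 3 and 6, and the interval of library 2, 33.1 to 102 CPM, overlapped with all others. The fibroblast level was 9.03 times that of the other pericyte-like cells [6.36 to 12.7].

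Il11, a cytokine gene that the study also named for the stroke pericytes, stood at 4859 CPM in the response cells and 2.84 CPM in the other pericyte-like cells. Of the 43 pericyte-like cells with an Il11 UMI, 36 also had an Rdh10 UMI, 83.7%, against 93 of the 819 without Il11, 11.4%. The Rdh10 level was 1795 CPM in the former and 72.9 CPM in the latter, a ratio of 24.6. The study named both genes for these cells, and the relation is a description. An unnamed mural subcluster of 47 cells, of which 72.3% were called doublets with microglia genes in the lead, had another 91 Rdh10 UMIs in 9 cells and was left out of the pericyte-like cells.

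The class of the response cells was checked against markers. In the clustering of all cells, all 55 sat in a cluster led by the smooth muscle genes Acta2, Tagln and Myl9. Set against all clusters, their 10 leading genes held Vtn and Kcnj8 of the pericyte list, no smooth muscle marker, and Dcn of the fibroblast list. The 7 pericyte markers summed to 9752 CPM against 31282 in the other pericyte-like cells, and the 7 smooth muscle markers to 448 CPM against 3198. The 7 fibroblast markers summed to 1819 CPM against 279, where fibroblast-like cells had 14406. Most of this was Dcn, a matrix proteoglycan gene, at 1598 CPM against 58.2, and Lum had 89.0 CPM against 0. The fibroblast markers Col1a1, Pdgfra and Dpt were at 0 in the response cells, Col1a2 was at 79.1 CPM against 156, and Col3a1 at 52.7 against 62.4. The part of these marker levels in the Rdh10 level was not tested.

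Aldh1a1, Aldh1a2 and Aldh1a3 encode the dehydrogenases that turn retinal into retinoic acid. Aldh1a1 (ENSMUSG00000053279, chr19:20492715-20643465, plus strand) was highest in fibroblast-like cells at 566.5 CPM [466 to 682], with a UMI in 23 of 31 cells. It followed in pericyte-like cells at 47.4 CPM [40.1 to 55.7] and in astrocyte-like cells at 40.1 CPM [35.6 to 44.96], whose intervals overlapped. Oligodendrocyte-like cells at 8.35 CPM and endothelial-like cells at 3.48 CPM were below the 9.85 CPM found outside cells, and 0.0765% of the microglia-like cells had a UMI. Smooth muscle-like cells had none, and the exact lower bound of the pericyte to smooth muscle ratio was 17.6. With 3 UMIs allowed in the smooth muscle-like cells as a group, the ratio would be 21.9. The fibroblast level was 11.9 times the pericyte level [9.27 to 15.4]. The near-identical copy Aldh1a7 had 17 UMIs in all cells, and reads that fit both genes cannot be told apart.

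Aldh1a1 was not detected in the response cells. None of the 55 had a UMI, which allows up to 12.2 CPM, while 80 of the 807 other pericyte-like cells had one, 148 UMIs in all and 52.5 CPM [44.4 to 61.7]. The upper bound of the ratio was 0.234. Within library 6 alone there were 0 UMIs in response cells and 32 in the other 85 pericyte-like cells, with an upper bound of 0.201. Within library 4 the counts were 0 and 16, and the upper bound of 1.18 leaves no difference detectable at this depth. With Il11 as the mark, 0 of 43 cells with an Il11 UMI had Aldh1a1 against 80 of 819 without. Since 37 of these 43 were response cells already counted, this is no separate observation.

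Among the other pericyte-like cells, Aldh1a1 was uneven. Subcluster 7, with 34 cells led by Ccl19, S100a6 and Tmem176a, stood at 409 CPM [311 to 529] with a UMI in 18 cells. Subcluster 1 had 59.7 CPM, subcluster 0 had 35.8, subcluster 4 had 16.1 and subcluster 2 had 4.34. Subcluster 1 came mainly from libraries 1, 2, 5 and 6, with 43, 41, 66 and 67 cells. Subclusters 0 and 2 came mainly from libraries 3 and 4, with 177 and 37 cells and with 125 and 69 cells. Differences between subclusters 0, 1 and 2 thus cannot be told apart from differences between libraries. The ratio of subcluster 7 to the other pericyte-like cells outside the response cells was 12.2 [8.59 to 17.1]. Its molecules came from 4 libraries: 19 UMIs among 11 cells of library 3, 12 among 9 cells of library 4, 18 among 5 cells of library 5 and 9 among 5 cells of library 6. Subcluster 7 also had Rarb at 77.6 CPM [38.7 to 139], which was 14.8 times the rest [6.09 to 35.2], and Dhrs3 at 35.3 CPM [11.4 to 82.3]. The Dhrs3 level came from 5 UMIs and lay below the 44.1 CPM found outside cells. Rdh10 was not raised in subcluster 7, with 28.2 CPM and a ratio of 0.878 [0.234 to 2.33]. All 34 cells had sat in the smooth muscle-led cluster of all cells, and their 10 leading genes held 3 pericyte markers, 2 smooth muscle markers and the B lymphocyte marker Ebf1, which mural cells also express. Markers of other classes moved with these levels. The 7 fibroblast markers summed to 1277 CPM in subcluster 7 against 226 in the other 773 cells, with 4 of 7 detected in each, and fibroblast was the class outside the mural ones that it scored highest for. Dcn was at 381 CPM against 41.1, Col3a1 at 635 against 32.1 and Col1a1 at 35.3 against 0.374, while Pdgfra, Lum and Dpt were at 0 in both. The 7 smooth muscle markers summed to 5156 CPM against 3094, and the 7 pericyte markers to 11277 against 32341. The part of these marker levels in the Aldh1a1 and Rarb levels was not tested.

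**Figure D3:**
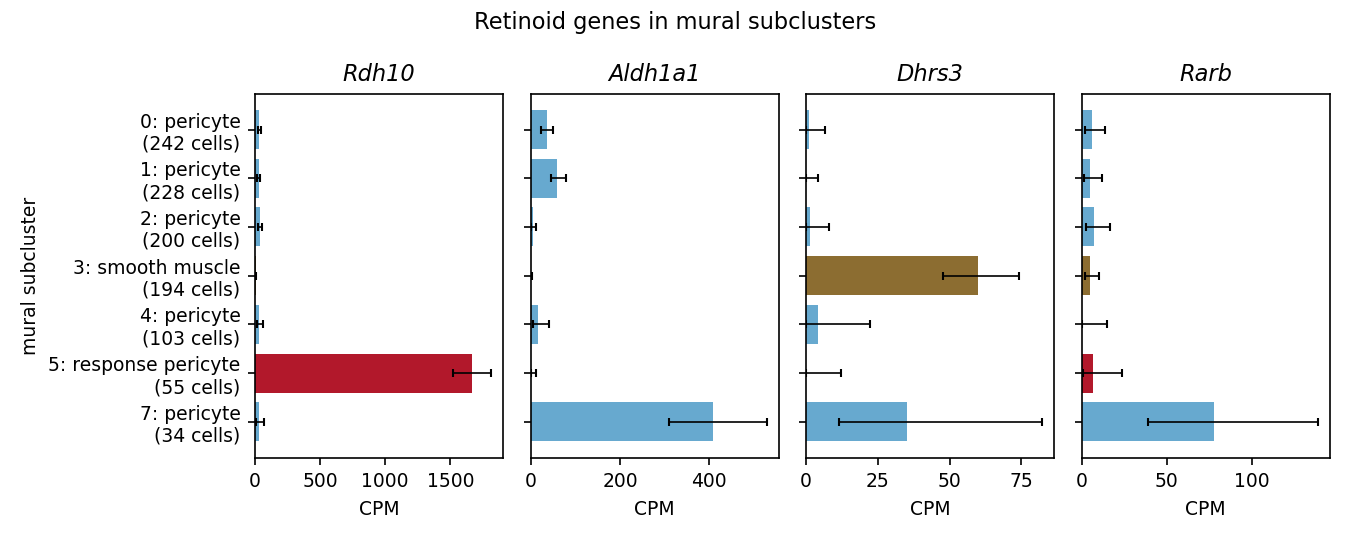
Levels in CPM (horizontal axes, from 0) of Rdh10, Aldh1a1, Dhrs3 and Rarb in the 7 named subclusters of mural cells, with exact 95% Poisson intervals. Rdh10 stands at 1664 CPM in the response cells of subcluster 5, Aldh1a1 at 409 CPM and Rarb at 77.6 CPM in subcluster 7, and Dhrs3 at 59.9 CPM in the smooth muscle-like cells of subcluster 3.

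Between the libraries, Aldh1a1 in pericyte-like cells was 7.92 CPM in library 1, 43.3 in library 2, 30.5 in library 3, 28.0 in library 4, 145 in library 5 and 60.4 in library 6. Library 5 stood above the other 5, with an interval of 108 to 190 CPM, and library 1 was the lowest with 2 UMIs. Without subcluster 7 and the response cells, the other pericyte-like cells of library 5 had 102 CPM [71.0 to 143] and those of library 6 75.6 CPM [47.9 to 114], against 8.01 to 45.1 CPM in libraries 1 to 4. The interval of library 2 overlapped with those of libraries 5 and 6, and those of libraries 1, 3 and 4 did not. In astrocyte-like cells the order was another: library 1 was highest at 80.4 CPM, and libraries 2 to 6 lay between 26.6 and 46.0 CPM. The ratio of pericyte-like to astrocyte-like cells thus ran from 0.0985 in library 1 [0.0117 to 0.368] to 5.45 in library 5 [2.19 to 17.5].

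Aldh1a2 (ENSMUSG00000013584, chr9:71215789-71296243, plus strand) had 99 UMIs in all cells, of which 58 were in 15 of the 31 fibroblast-like cells, 293 CPM [223 to 379]. Another 36 were in an unnamed cluster of 134 cells led by Cd74, H2-Aa and H2-Eb1, genes of antigen presentation, at 23.0 CPM, and 20 of these were in a single cell. The fibroblast level was 497 times that of monocyte-derived macrophage-like cells [131 to 4200], the next named class, where 2 UMIs were counted. Pericyte-like, smooth muscle-like, endothelial-like and astrocyte-like cells had none, which allows up to 1.18 CPM in pericyte-like cells. Aldh1a3 (ENSMUSG00000015134, chr7:66390890-66427517, minus strand) had 57 UMIs. Its levels were 20.2 CPM [5.51 to 51.8] in fibroblast-like cells from 4 UMIs and 2.12 CPM [1.37 to 3.13] in endothelial-like cells from 25 UMIs, a ratio of 9.53 [2.41 to 27.6] that fell to 3.42 [0.0831 to 21.1] without library 6. The response cells had 4 UMIs, all in 1 cell, and the other pericyte-like cells had 2.

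Cells with molecules of both oxidation steps were counted in single classes. Of the 31 fibroblast-like cells, 12 had an Rdh10 UMI, 27 had a UMI of any of Aldh1a1, Aldh1a2 and Aldh1a3, and 11 had both. Of the 55 response cells, 53 had Rdh10 and 1 had any of the 3, also with Rdh10. Among the 807 other pericyte-like cells 76 had Rdh10, 82 had any of the 3 and 8 had both. Among the 1165 astrocyte-like cells the numbers were 143, 201 and 29. Counts of joint detection grow with depth and are given as they are.

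Dhrs3 (ENSMUSG00000066026, chr4:144892827-144928209, plus strand, no overlapping gene) encodes the reductase that returns retinal to retinol, and it is known to act together with Rdh10. It was the most counted of the 9 genes, with 7853 UMIs. Its level was 158 CPM [131 to 188] in perivascular macrophage-like cells and 142 CPM [138 to 145] in microglia-like cells, which did not differ beyond counting error, at a ratio of 1.11 [0.925 to 1.33]. Astrocyte-like cells had 86.4 CPM [79.7 to 93.4]. Fibroblast-like cells at 60.7, smooth muscle-like cells at 59.9 and monocyte-derived macrophage-like cells at 50.2 CPM had overlapping intervals and lay near the 44.1 CPM found outside cells.

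Pericyte-like cells had almost no Dhrs3. They had 8 UMIs, 2.56 CPM [1.11 to 5.05], with a UMI in 0.812% of the cells, and the 55 response cells had none, which allows up to 12.2 CPM. Smooth muscle-like cells, the other mural class, had 23.4 times as much [11.3 to 55.9], and 29.4% of them had a UMI. In the libraries with at least 20 smooth muscle-like cells the levels of the latter were 66.4, 70.3, 41.0 and 51.7 CPM in libraries 3, 4, 5 and 6, while pericyte-like cells were between 0 and 8.65 CPM in the 6 libraries. The lowest smooth muscle value was above the highest pericyte value. Oligodendrocyte-like cells were also low, at 0.543 CPM, below the 44.1 CPM found outside cells. The smooth muscle level lay near that value, and the part of free molecules in it was not tested. With the libraries pooled, Rdh10 was thus higher in pericyte-like cells and Dhrs3 higher in smooth muscle-like cells. For Rdh10, 84.9% of the pericyte molecules were in the response cells. The other pericyte-like cells had 31.9 CPM of Rdh10 against 4.33 CPM in smooth muscle-like cells. In library 3, without response cells, the interval of the Rdh10 ratio included equal levels.

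**Figure D4:**
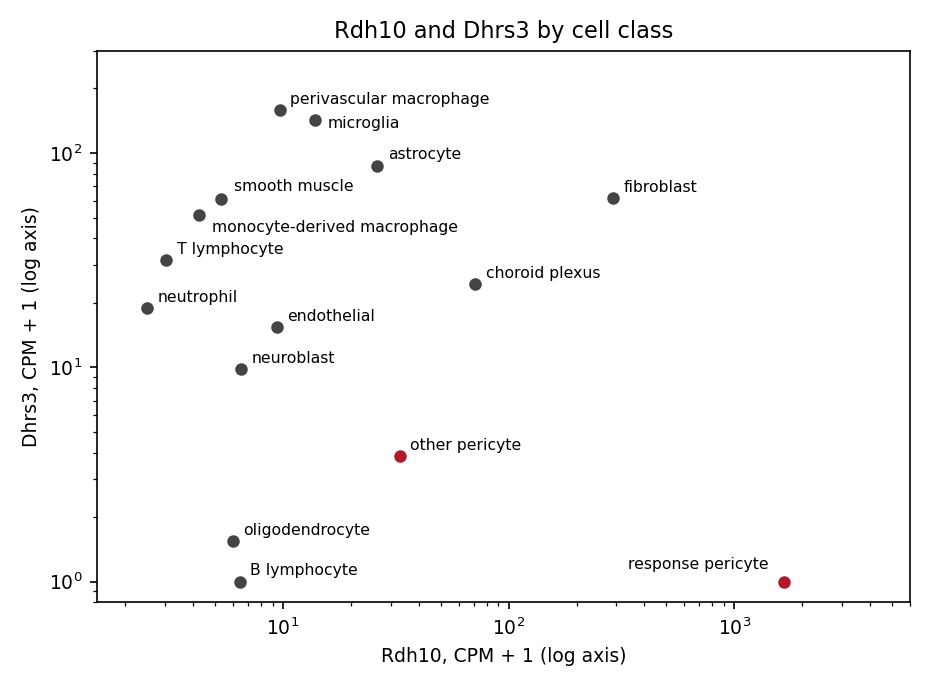
Rdh10 (horizontal) against Dhrs3 (vertical), both as CPM + 1 on log axes, for each class, with the pericyte-like cells split into response cells and others (red). The response cells lie at 1664 CPM of Rdh10 with 0 Dhrs3 UMIs, and microglia-like cells lie at 12.8 CPM of Rdh10 and 142 CPM of Dhrs3.

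In microglia-like cells Dhrs3 was 130 CPM in library 1, 140 in library 2, 183 in library 3, 111 in library 4, 155 in library 5 and 83.1 in library 6. Library 3 was highest and libraries 4 and 6 were lowest, with intervals of 177 to 190, 105 to 117 and 76.1 to 90.5 CPM that did not overlap. The level differed between microglial clusters. Clusters 0 and 1, led by Gpr34, P2ry12 and Siglech of resting microglia, had 168 and 188 CPM, cluster 5, led by Cd83, Ccl4 and Il1a, had 134 CPM, and cluster 3, led by Spp1, Lpl and Ccl12, had 63.0 CPM. The ratio of cluster 3 to clusters 0 and 1 was 0.357 [0.329 to 0.387]. Cluster 3 came from library 4 (803 cells) and library 6 (638 cells) but for 32 cells, and had 53.4 and 69.5 CPM there, against 153 and 140 CPM in cluster 0 and 182 and 133 CPM in cluster 1 of the same libraries. Within clusters 0 and 1, library 4 was thus inside the range of the other libraries. Astrocyte-like cells showed a similar order, from 120 CPM in library 2 and 110 in library 3 to 58.9 in library 4 and 47.0 in library 6, and this held within astrocyte cluster 8, with 148 and 119 CPM against 64.0 and 55.9 CPM. In astrocyte cluster 10 it held for library 3, at 83 CPM [61.6 to 109], against 37.9 [21.6 to 61.5] in library 4 and 8.36 [0.2115 to 46.55] in library 6. The last value came from 1 UMI. Library 2 of this cluster had 34.2 CPM from 6 UMIs, and its interval of 12.5 to 74.4 CPM overlapped with those of libraries 3, 4 and 6. Free molecules of Dhrs3 were 74.8 CPM in library 3, 24.7 in library 6 and between 38.1 and 43.8 in the other 4, and their part in these differences was not tested.

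Cyp26b1 (ENSMUSG00000063415, chr6:84571414-84593908, minus strand) encodes the P450 enzyme of the brain that clears retinoic acid. It was hardly detected, with 43 UMIs in 38 cells. No class reached 1 CPM: endothelial-like cells had 0.934 CPM from 11 UMIs and oligodendrocyte-like cells 0.877 CPM from 21, a ratio of 1.06 [0.463 to 2.31]. Pericyte-like and fibroblast-like cells had none, which allows up to 1.18 and 18.7 CPM. Its relatives Cyp26a1 and Cyp26c1 had 0 UMIs in all cells.

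**Figure D5:**
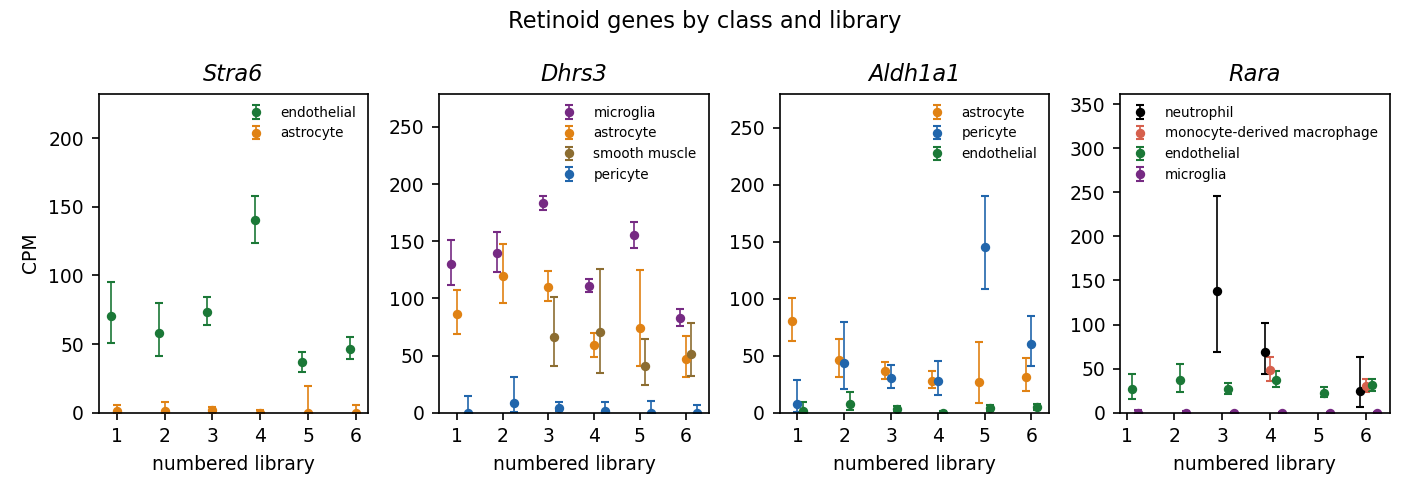
CPM of Stra6, Dhrs3, Aldh1a1 and Rara by numbered library in classes picked for each gene. A class is shown where the library held at least 20 of its cells, and bars are exact 95% Poisson intervals. Some classes with more molecules than those shown were left out. Among the classes shown, Stra6 peaks in endothelial-like cells of library 4 at 140 CPM and Dhrs3 in microglia-like cells of library 3 at 183 CPM. Aldh1a1 peaks in pericyte-like cells of library 5 at 145 CPM. Perivascular macrophage-like cells, which are not shown, had 195.6 CPM of Dhrs3 in library 3.

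Rara (ENSMUSG00000037992, chr11:98927818-98974942, plus strand) and Rarb (ENSMUSG00000017491, chr14:16430839-16819156, minus strand) encode nuclear receptors of retinoic acid. Rara was highest in neutrophil-like cells at 64.2 CPM [46.5 to 86.5], followed by monocyte-derived macrophage-like cells at 38.1 CPM [31.8 to 45.3] and endothelial-like cells at 29.3 CPM [26.3 to 32.5]. The ratio of the first to the second was 1.69 [1.17 to 2.40], but it was 1.42 [0.847 to 2.33] within library 4 and 0.823 [0.218 to 2.21] within library 6, and without library 3, 4 or 6 its interval included equal levels. Microglia-like and oligodendrocyte-like cells had 5 UMIs each, 0.113 and 0.209 CPM, and the endothelial level was 260 times the microglial level [110 to 806]. Pericyte-like cells had 8.97 CPM, and the endothelial level was 3.27 times as high [2.22 to 4.99]. In endothelial-like cells the 6 libraries lay between 22.8 and 37.7 CPM, all with overlapping intervals except that of library 5, 17.5 to 29.1 CPM, against that of library 4, 29.4 to 47.6 CPM. In neutrophil-like cells the level was 138 CPM in library 3, 68.9 in library 4 and 24.7 in library 6, from 11, 25 and 4 UMIs.

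Rarb had few molecules. Fibroblast-like cells had 35.4 CPM [14.2 to 73.0] from 7 UMIs, pericyte-like cells 8.65 CPM [5.70 to 12.6] from 27 (a ratio of 4.10, or 3.03 [0.884 to 8.39] without library 3), smooth muscle-like cells 5.05 CPM from 7 and astrocyte-like cells 4.56 CPM from 33. Endothelial-like cells had 1 UMI and microglia-like cells 3. Rara and Rarb thus differed on the endothelial side of the vessel wall, at 29.3 and 0.0849 CPM. Both genes were found in mural cells: Rara stood at 8.97 CPM among pericyte-like and 12.3 CPM among smooth muscle-like cells. The pericyte level of Rarb was 102 times the endothelial level [16.8 to 4171]. Of the 27 pericyte UMIs of Rarb, 11 lay in subcluster 7. Without subcluster 7 and the response cells, pericyte-like cells had 5.23 CPM of Rarb [2.86 to 8.78]. This interval included the smooth muscle and astrocyte values. The response cells had 2 UMIs of each receptor gene, and their ratios to the other pericyte-like cells were 0.714 for Rara [0.0822 to 2.85] and 0.743 for Rarb [0.0853 to 2.98], which shows no difference detectable at this depth. The gene of Rarb overlaps with Top2b on the opposite strand, which had 8791 UMIs.

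Counted over the 9 genes, 4 had at least 10 UMIs in pericyte-like cells. Of these, Rdh10 was 2 times or more higher in the response cells, against 9.95% of the 10929 genes with as many, and Aldh1a1 was 2 times or more lower, against 28.4%. Rara and Rarb were neither. The median ratio of these genes was 0.729, and over all genes counted it was 0.810. Between pericyte-like and smooth muscle-like cells, 2 of 5 genes, Rdh10 and Aldh1a1, were 2 times or more higher in pericyte-like cells, against 24.0% of 11552 genes, and 1, Dhrs3, was lower, against 8.54%.

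The list of 42 other genes of the pathway was read the same way. Of the 17 with enough molecules in pericyte-like cells, 1 was 2 times or more higher in the response cells, 5 were lower and 11 were neither, with a median ratio of 1.16. The shares over all genes were 9.95% higher and 28.4% lower, so that the count of lower genes is near the background and is no result about the pathway. The gene that was higher was Fabp5, a carrier of fatty acids that can bring retinoic acid to Ppard, with 260 CPM against 53.9 and a ratio of 4.83 [3.63 to 6.38]. Within the libraries its ratio was 2.11 in library 4 [1.16 to 3.72] and 2.74 in library 6 [1.78 to 4.26]. Among the lower genes were the dehydrogenases Rdh5 and Rdh14 and the receptors Rarg and Rxrb. Rdh5 had 1 UMI against 128, a ratio of 0.0726 [0.00182 to 0.411], and Rdh14 had 0 against 87, with an upper bound of 0.402. Within the libraries, the upper bound for Rdh5 was 0.793 in library 4 and its ratio 0.273 [0.00595 to 2.25] in library 6, and the upper bounds for Rdh14 were 1.18 and 8.74. The intervals of Rarg and Rxrb also included equal levels within each of these libraries. Apart from Rdh5 in library 4, none of these differences was detectable within a library at this depth.

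Outside the mural cells, other dehydrogenases and carriers marked classes in which Rdh10 was low or few cells were present. Rdh12 stood at 394 CPM and Dhrs9 at 122 CPM in neutrophil-like cells, where Rdh10 had 1 UMI. Rdh5 stood at 410 CPM in choroid plexus-like cells and 41.3 CPM in pericyte-like cells. The gene of the plasma carrier Rbp4 had 24 UMIs, all in 3 fibroblast-like cells, 20 of them in 1 cell. Of the 42 genes, 22 reached 20 CPM in a class, and 10 were 2 times or more above the next class, against 32.0% of all genes ranked. Fibroblast-like cells were the highest class for 4, against 8.90%. Of these, Rbp4, Adh1 and Crabp2 reached 20 CPM in fibroblast-like cells alone, so the cut-off fixed their highest class and the count is no result about the pathway. Among genes known to be induced by retinoic acid, Rarres2 was highest in pericyte-like cells at 761 CPM, and it was at 481 CPM in the response cells against 791 in the others, a ratio of 0.608 [0.511 to 0.719]. Tgm2 was highest in monocyte-derived macrophage-like cells at 402 CPM, and its ratio in response cells was 1.18 [0.454 to 2.60].

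The genes outside the list whose levels over the 14 classes were most like each of the 9 were found by Pearson's r of log2(CPM + 10), given as a description over classes that share the same libraries. For Rdh10 these were Mpg with r = 0.959, Samd5 with 0.958 and Dcdc2a with 0.946. Each of these peaked in the 31 fibroblast-like cells, at 75.9, 86.0 and 187 CPM. For Stra6 they were Zfp979 with 0.915, Arl4a with 0.905 and Slc16a4 with 0.904, and for Dhrs3 Tmem176a with 0.896, Tmem176b with 0.833 and Rin2 with 0.819. Aldh1a1 was nearest to Prrx2 with 0.980, Syt12 with 0.977 and Chrd with 0.975, and Rarb to Col1a2 with 0.959, Samd5 with 0.959 and Col5a2 with 0.957, which all peaked in fibroblast-like cells. Aldh1a2 was nearest to Mmp3, Slc22a2 and Slc22a6, and Aldh1a3 to Tfpi2, Col13a1 and Cyp1b1, again all fibroblast genes here, where a high r rests on 1 class of 31 cells. Rara was nearest to Iqgap1 with 0.902, Fxyd5 with 0.877 and Adgre5 with 0.876, which peaked in neutrophil-like cells.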

How the data were processed

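Cells of 6 brain libraries were counted with the 10x 3′ assay. The authors deposited 1 pooled matrix of UMI counts, whole numbers per gene and barcode with 6794880 barcodes for each library, made with Cell Ranger 5 and its aggregation step, which by their methods normalizes depth between libraries. The submitters' processing notes name build mm10. A barcode was kept as a cell with at least 0.1 times the 99th percentile of the UMIs of the top 3000 barcodes of its library, at least 200 genes and at most 10% mitochondrial counts. Counts were scaled to 10000 and log-transformed, 2000 variable genes were taken without the 51 listed retinoid genes and 10 genes of the stroke pericyte subcluster, and cells were clustered with 30 components (15 for mural cells), 20 neighbours and the Leiden algorithm at resolution 0.8 (leidenalg 0.10.2, igraph 0.11.9). Classes were named from marker lists. Called doublets, 0.854% to 3.01% of a library, stayed in, and clusters made mostly of them stayed unnamed. UMIs were summed per class with numpy 2.4.6 and scipy 1.17.1 (exact Poisson intervals, conditional intervals of ratios and Clopper-Pearson intervals, all at 95%), and no p-value was made. A ratio was read where a gene had at least 10 UMIs in the cells compared, genes were ranked over classes where they reached 20 CPM in one, and levels per library were read for 20 cells or more. The genes named are the 9 retinoic acid genes, the pathway list, cell type markers and, for each of the 9 that reached 20 CPM in a class, the 3 genes most like it. The 9 genes and all lists were chosen with earlier results of these data known. Other filters, scalings, resolutions and definitions of the cells were tried as alternatives, some chosen after the data were seen. The library numbers, being tied to no group, were not averaged or tested. The scripts were tested on simulated data. The values of 1 gene of the pathway list are not reported here. Gene positions come from GENCODE vM21 on GRCm38.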

Additional observations from a re-analysis of the deposited data

How the results depend on the processing

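Of 134 alternatives on filters, scaling, clustering and cell definitions, 123 left the value within its counting interval, 11 moved it, and no ratio whose interval excluded equal levels crossed them. With the mean of each cell's own CPM, Rdh10 in pericyte-like cells was 254.9 CPM in library 4 and 501.4 in library 6, and the ratio to endothelial-like cells 17.05. In library 6 it was 719.6 CPM with the retinoid genes and the 10 genes of the study's subcluster kept for clustering and 732.4 without mitochondrial, ribosomal protein and hemoglobin genes in the total. The ratio to endothelial-like cells was 29.85 without mural subcluster 0 and 3.80 without the response cells, whose ratio to the others was 24.62 when an Il11 UMI defined them. The fibroblast to pericyte ratio of Rdh10 was 9.03 without the response cells. At resolution 0.4 the ratio of Aldh1a2 was 44.47 and that of Cyp26b1 0.4321, and no cells were named perivascular macrophage-like, so Dhrs3 had no value. The ratio of Cyp26b1, with an interval that included equal levels, also lay below them without its top cell (0.7744) and without library 4 (0.5889). These alternatives on subclusters and response cells were chosen after seeing the data.

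With 1 library left out at a time, the pericyte to endothelial ratio of Rdh10 ran from 12.7 without library 6 to 35.69 without library 3, its fibroblast to pericyte ratio from 1.117 without library 3 to 2.868 without library 6, and the ratio of Aldh1a1 from 9.251 without library 3 to 14.93. The other 59 values obtained this way stayed within the original interval. In 8 of 53 ratios with 1 library left out, and in 3 of 68 under the other alternatives, an interval that had excluded equal levels no longer did: those of Rdh10, Stra6, Aldh1a3, Rara and Rarb between their leading classes. Small fibroblast-like counts limit the ratios of Aldh1a2, Aldh1a3 and Rarb. No paired analysis was possible because the library numbers are tied to no group and no test was made.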
